A study of Arabidopsis thaliana with 12 samples.

Results

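Seedlings of 1 Arabidopsis thaliana line that expresses the seed transcription factor FUS3 under an estradiol-inducible promoter were compared with wild-type (WT) seedlings, both grown on medium with 1.5% sucrose. The comparison used the 3 arrays titled FUS3 with sucrose and the 3 titled WT with sucrose, 6 of the 12 arrays of the series, over all 22746 probe sets that are not controls. The FUS3 seedlings were line 2-8 of ESTpro:FUS3-strong, germinated on 1/2MS medium with 5 µM estradiol as the inducer. The WT seedlings were germinated on the same basal medium and sucrose. The labels name estradiol in the medium of line 2-8, and the design text places both genotypes under inducing conditions, so whether WT seedlings also received estradiol is not settled here. All seedlings were 8 days old, and total RNA of triplicate biological samples was hybridised to Affymetrix ATH1 arrays. The other 6 arrays held the same genotypes grown without sucrose, and their differences are given beside those with sucrose for some of the genes and lists. The study asked how FUS3 and sucrose interact in seedlings that accumulate oil. Only 1 line was profiled. Whole seedlings were extracted, so fewer cells of a type and less RNA in each of its cells cannot be told apart.

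FUS3 is a B3-domain transcription factor of the network that also holds LEC1, LEC2 and ABI3. During the second phase of seed development this network turns on storage proteins, the proteins that coat oil bodies, triacylglycerol synthesis and the late embryogenesis abundant (LEA) proteins that accompany drying. After germination these genes are normally silent, and the young seedling builds chloroplasts, expands its cells and forms stomata and trichomes. Sucrose supplies carbon and is also a signal that represses photosynthesis genes and promotes reserve synthesis.

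Signals were linear MAS5 values scaled by the submitters, and differences are FUS3 minus WT on the log2(signal + 16) scale. The FUS3 transcript itself was not analysed here, because no probe set is named for it in the probe annotation used, so the induced gene could not be used to check the labels. Transcripts typical of green seedlings were high in every array. RCA, the activase of the carbon-fixing enzyme Rubisco, had 29664, 28942 and 30171 in the FUS3 arrays, against 38495, 41832 and 38229.5 in the WT arrays, and PYK10, a beta-glucosidase of root endoplasmic reticulum bodies, averaged 27681 ± 110.4 in FUS3 and 27559 ± 2826 in WT (SD, n = 3 each). Median signals were 434 to 443 in the FUS3 arrays and 415 to 429 in the WT arrays. Pearson correlations of log2 signal across probe sets were 0.987 to 0.989 between arrays of 1 group and 0.924 to 0.935 between the groups. Among the control probe sets the one of 25S ribosomal RNA stood apart, averaging 9915 ± 701 in FUS3 and 3491 ± 1023 in WT (log2 difference 1.54, exact permutation p = 0.1, adjusted p = 0.25 over 10 control measures). With 3 arrays against 3, 0.1 is the smallest p that this two-sided test can give. Groups also did not overlap, at the same p and adjusted p, in 3 other control measures. The log2 ratio of 3′ to 5′ signal was 4.38 ± 0.031 in FUS3 and 4.15 ± 0.119 in WT for 1 of the pairs of actin probe sets, and -0.0052 ± 0.051 in FUS3 and -0.116 ± 0.033 in WT for 1 of the pairs of GAPDH probe sets. The spiked bioB control averaged 554 ± 21.8 in FUS3 and 691 ± 1.92 in WT. The part of these controls in the differences below was not tested.

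Of the 22746 probe sets, 8761 were called at an adjusted p under 0.05 by limma with Benjamini-Hochberg adjustment, which is 38.5% of those tested. FUS3 was higher in 4300 (18.9%) and lower in 4461 (19.6%), and the median difference over all probe sets was 0.01. Scaling moved this balance, to 4045 higher and 4847 lower after quantile normalization, and to 3724 higher and 5001 lower after subtracting array medians. Signals of the 3 FUS3 arrays and the 3 WT arrays did not overlap in 49.4% of probe sets, 25.2% with FUS3 higher and 24.1% with FUS3 lower. These shares, with the 18.9% and 19.6% called, are the background for the list counts and the groups without overlap given below. At least 2-fold differences were called higher in 1124 probe sets (4.94%) and lower in 1218 (5.35%). At least 16-fold differences were called higher in 178 (0.783%) and lower in 5 (0.022%). Of the 178, 153 had a mean WT signal under 100, so most of the large increases began near the bottom of the signal range. The files used here hold no detection calls. A low WT signal may therefore be background, and a log2 difference from such a level depends on the 16 added. Together the 178 probe sets took 5.90 ± 0.37% of the summed signal in FUS3 arrays and 0.0377 ± 0.0038% in WT arrays (SD, n = 3 each). The 1218 probe sets that were at least 2-fold lower took 3.95 ± 0.158% of the summed signal in FUS3 arrays and 10.7 ± 0.342% in WT arrays, and 564 of them had a mean WT signal of at least 1000. Both sets were chosen by their difference in these same arrays, so the direction of each shift in share was fixed by the choice. Their cutoffs differ, 16-fold and 2-fold, so the sizes of the shifts are not to be compared. Replicates were labelled as biological. The p-values rest on the spread within groups pooled over the arrays with and without sucrose, moderated by the spread of other probe sets. They therefore do not measure only the spread between the arrays compared. With only the arrays with sucrose, 8451 probe sets were called, and without the moderation 8057.

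**Figure D1:**
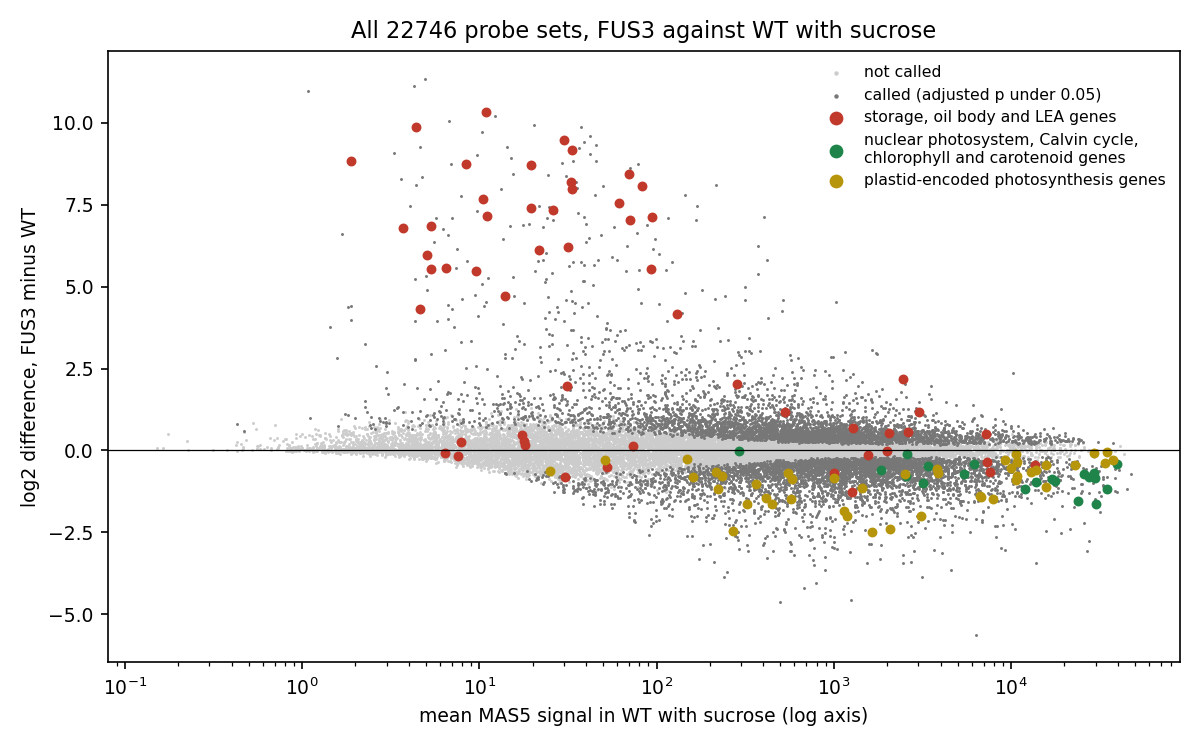
Each point is 1 of the 22746 probe sets, with its mean MAS5 signal in WT with sucrose on the x axis (log axis) and the FUS3 minus WT log2 difference on the y axis, and the members of 3 sets of gene lists in colour. The at least 16-fold increases, 178 probe sets, lie mostly at the left, where WT signals are low, while the decreases extend to the highest WT signals.

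Seed storage proteins gave some of the largest differences in the comparison. Of 7 measured genes of cupin and vicilin type storage proteins, 5 rose and none fell, with a median of 8.73 against 0.01 over all probe sets. That is 71.4% called higher, against 18.9% of all probe sets. Most of the 7 were put on this list after the files were read, so these values describe the listed genes only. AT1G03890, a cruciferin-type globulin gene (chromosome 1, 989198 to 991020 in TAIR10.1), had 17641, 19568 and 19011 in the FUS3 arrays, against 2.48, 3.38 and 7.38 in the WT arrays. Every WT array was near the lowest signals of the array and the groups lay far apart. The log2 difference was 9.85 (SE 0.17), adjusted p = 2.02e-14. AT2G28490, a cupin gene, had 23161, 25775 and 22985 in the FUS3 arrays, against 42.6, 55.3 and 1.72 in the WT arrays. Its difference of 9.16 (SE 0.37) was 8.53 without WT replicate 3, whose signal was the lowest of the WT arrays. PAP85, a vicilin-type protein, averaged 32316 ± 562 in FUS3 and 29.9 ± 6.70 in WT, and AT4G36700, another cupin gene, averaged 10201 ± 327 in FUS3 and 8.43 ± 5.34 in WT. AT2G18540, also of the vicilin group, rose by only 1.96 (SE 0.23). The cupin genes AT1G07750 and AT2G28680 were not called, with differences of -0.01 and 0.16. Without sucrose, where 9.5% of all probe sets were called higher and 7.03% lower (16.5% in all), 5 of the 7 were called higher with a list median of 4.40, and for all 5 that rose the difference with sucrose exceeded the one without it (interaction called). The interaction was 5.45 (SE 0.24) for AT1G03890 and 3.81 (SE 0.16) for PAP85.

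Proteases that process or break down storage proteins in protein storage vacuoles were mixed. Of 8 measured, 6 rose and 1 fell, where 18.9% of all probe sets were called higher and 19.6% lower. All 8 were put on this list after the files were read, so the count describes these genes only. AT3G54940, a papain-type cysteine protease, had 16637, 20243 and 17319 in the FUS3 arrays, against 15.1, 23.5 and 4.51 in the WT arrays, groups that lie far apart. The aspartic protease AT1G62290 averaged 23833 ± 3083 in FUS3 and 417 ± 100 in WT, a difference of 5.80 (SE 0.14). Among the vacuolar processing enzymes, which cleave globulin precursors, the seed form BETA-VPE and the vegetative form GAMMA-VPE changed in opposite directions. BETA-VPE had 12864, 12287 and 13184 in the FUS3 arrays, against 563, 387 and 609 in the WT arrays, and rose by 4.60 (SE 0.16). GAMMA-VPE had 3284, 3587 and 3252 in the FUS3 arrays, against 6891, 8669 and 9343 in the WT arrays, and fell by 1.28 (SE 0.10), adjusted p = 1.73e-07. The groups did not overlap for either gene. ALPHA-VPE rose by 0.88 and the aspartic protease AT4G04460 by 0.65, but neither call held in all 6 fits that left out 1 array. The ALPHA-VPE call was lost without FUS3 replicate 1 or 2 or WT replicate 1 or 3, with an adjusted p of up to 0.124. The AT4G04460 call was lost without FUS3 replicate 2, where the adjusted p was 0.0508.

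Proteins of the oil body surface rose together. Of 11 measured oil body and lipid droplet genes, 8 rose (72.7%, against 18.9% of all probe sets) and none fell, with a median of 4.31. Most of the 11 were put on this list after the files were read, so these values describe the listed genes only. OLEO3, an oleosin that shields the oil body surface (chromosome 5, 20820068 to 20820944), had 13469, 15443 and 14219.6 in the FUS3 arrays, against 69.9, 55.1 and 58.4 in the WT arrays, a difference of 7.55 (SE 0.15). The oleosin gene AT3G01570 averaged 28352 ± 1387 in FUS3 and 70.3 ± 30.0 in WT, AT3G18570 averaged 5231 ± 535 in FUS3 and 10.4 ± 8.51 in WT, and AT2G25890 averaged 6000.5 ± 1108 in FUS3 and 19.7 ± 4.25 in WT. All 4 oleosin genes thus rose by more than 7 log2 units. AT5G16460, a seipin that acts where oil bodies bud from the endoplasmic reticulum, rose by 4.31 (SE 0.30), and the lipid droplet-associated protein gene AT2G47780 rose by 5.53 (SE 0.20). Of the other lipid droplet-associated protein genes, AT3G05500 averaged 6821 ± 583 in FUS3 and 3035 ± 67.8 in WT, and AT1G67360 averaged 2985 ± 412 in FUS3 and 2039.7 ± 149 in WT, rises of 1.16 (SE 0.10) and 0.54 (SE 0.12). AT1G23240, AT1G23250 and AT5G16550 were not called, at -0.50, -0.07 and -0.15. The interaction was called in the same direction for 7 of the 8 genes that rose, the exception being AT1G67360.

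Enzymes that make the oil gave smaller and mixed differences. Of 3 measured genes of triacylglycerol assembly, AT3G44830, a phospholipid:diacylglycerol acyltransferase gene, had 222, 276 and 168 in the FUS3 arrays, against 31.3, 30.0 and 5.87 in the WT arrays, and rose by 2.69 (SE 0.36). GPDHC1, a glycerol-3-phosphate dehydrogenase, rose by 0.46 (SE 0.09), and AAPT2 was not called at -0.14. Plastid fatty acid synthesis showed 5 increases and 4 decreases among 12 measured genes, with a median of 0.12. That is 41.7% higher and 33.3% lower, against 18.9% and 19.6% of all probe sets. Most of the 12 were put on this list after the files were read, so these values describe the listed genes only. The largest increases were in the acyl-carrier protein desaturase genes AT3G02630, which averaged 5833 ± 173 in FUS3 and 2454 ± 450.4 in WT, and AT5G16240, which averaged 1013 ± 193 in FUS3 and 587 ± 99.6 in WT. These enzymes insert the first double bond into a plastid fatty acid. The acyl-ACP thioesterase genes, which release finished fatty acids from the plastid, differed in direction. FaTA rose by 0.63 (SE 0.14), while FATB fell by 0.54 (SE 0.09) and AT4G13050, another thioesterase gene, fell by 0.41 (SE 0.09). These 3 calls held in each of the 6 fits without 1 array. The gene accD, the plastid-encoded subunit of acetyl-CoA carboxylase, fell by 1.29 (SE 0.36), a call lost without FUS3 replicate 3 or WT replicate 1, with an adjusted p of up to 0.0609. The calls of AT1G24360, AT2G34590 and AT4G16155, all under 0.3 in size, were also lost in at least 4 of the 6 such fits, and that of AT2G34590 with the replicate number as a block (adjusted p = 0.0552). The count of increases was 3 without FUS3 replicate 2 or 3 or WT replicate 1 or 2, and that of decreases was 2 without FUS3 replicate 3 or WT replicate 1.

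LEA proteins formed the largest seed group measured. Of 37 genes, 26 rose and 5 fell, with a median of 4.73 and a range of -1.26 to 10.31. That is 70.3% higher and 13.5% lower, against 18.9% and 19.6% of all probe sets. Most of the 37 were put on this list after the files were read, so these values describe the listed genes only. At least 16-fold increases were found in 20, of which 19 had a mean WT signal under 100. AT3G15670, an LEA gene (chromosome 3, 5309886 to 5310988), had the largest difference of any gene named here. Its signals were 27604, 32113 and 31448 in the FUS3 arrays, against 30.3, 1.47 and 0.911 in the WT arrays, a difference of 10.31 (SE 0.30), adjusted p = 4.73e-12. AtLEA4-1 had 10979.5, 12058 and 10130.3 in the FUS3 arrays, against 89.4, 79.6 and 43.9 in the WT arrays. No WT array came near any FUS3 array for either gene. AT4G21020 averaged 8164 ± 1679 in FUS3 and 1.89 ± 0.914 in WT, LEA averaged 12427 ± 1472 in FUS3 and 33.2 ± 3.96 in WT, and AT5G44310 averaged 3718 ± 432 in FUS3 and 11.0 ± 6.94 in WT. DI21, a drought-induced LEA gene, averaged 11196 ± 1028 in FUS3 and 2466 ± 517 in WT.

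LEA genes known for cold and dehydration responses of vegetative tissue did not move as a block. COR15A, which encodes a chloroplast protein that protects membranes during freezing, had 1431, 1355 and 907 in the FUS3 arrays, against 530.1, 525 and 531 in the WT arrays, a rise of 1.17 (SE 0.22). Its close relative COR15B had 567, 487 and 486 in the FUS3 arrays, against 1118, 1117 and 1557 in the WT arrays, a fall of 1.26 (SE 0.15). The groups did not overlap in either case, although the 2 genes are close relatives whose probe sets may share signal. LTI30, a dehydrin, rose by 0.55 (SE 0.15), while the dehydrin COR47 fell by 0.67 (SE 0.08) and AT1G54410 fell by 0.44 (SE 0.08). The calls of the other 2 LEA genes that fell, AT4G38410 and AT2G44060, were lost in 4 of the 6 fits without 1 array, as was that of AT4G38410 with the replicate number as a block (adjusted p = 0.0564), and 3 genes were called lower without FUS3 replicate 1 or 3. Without sucrose, the LEA list had 17 genes called higher and 1 lower, with a median of 0.91. Called interactions were higher with sucrose for 24 of the 37 genes and lower for 2.

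**Figure D2:**
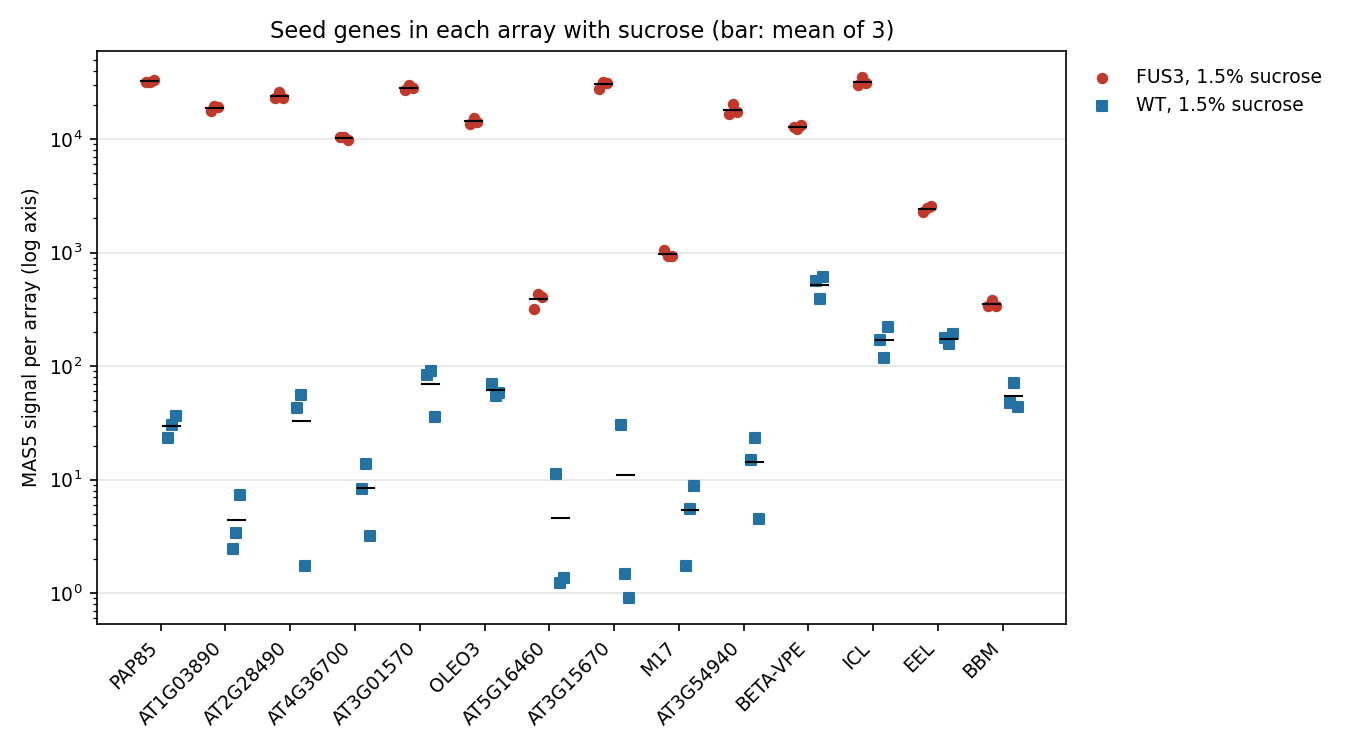
Signals of seed programme genes on a log axis, 3 FUS3 arrays at the left and 3 WT arrays at the right of each gene, with 1 point per array. Black bars mark the mean of 3, and for all 14 genes every FUS3 point lies above every WT point.

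Among the other largest increases were genes with no place in those lists. Among probe sets with 1 gene name, the 15 largest increases ran between 8.73 and 10.31, while the highest difference over all probe sets was 11.34. The 15 had mean signals of 8164 to 35374 in FUS3 and 1.89 to 45.4 in WT. AT2G15010, a thionin gene of small antimicrobial peptides, had 33604, 36923 and 35596 in the FUS3 arrays, against 51.0, 18.4 and 47.0 in the WT arrays. AT1G47540 had 33100.0, 27371 and 32065 in the FUS3 arrays, against 27.8, 5.82 and 3.13 in the WT arrays. ATOEP16-2, a channel protein of the outer plastid envelope, averaged 14625 ± 1082 in FUS3 and 15.1 ± 8.33 in WT, and AT3G56350, of the superoxide dismutase family, averaged 17836 ± 1812 in FUS3 and 29.1 ± 23.2 in WT. AT3G63040, AT5G45690, AT1G04560 and AT1G54860 rose by 10.06, 9.02, 8.84 and 8.74. These 15 were chosen for their difference with sucrose, which favours a larger difference with sucrose than without. All 15 were also called higher without sucrose, by 3.20 to 8.88, and for 14 the increase was larger with sucrose. The exception was AT1G47540, with 8.88 without sucrose and an interaction of 1.31 (SE 0.46), adjusted p = 0.0561.

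Few regulators of seed maturation had a named probe set. Of 5 measured, 3 rose and none fell. EEL, a bZIP factor that binds LEA promoters in seeds (chromosome 2, 17129753 to 17132386), had 2262, 2477 and 2590.2 in the FUS3 arrays, against 177, 157 and 191 in the WT arrays, and rose by 3.69 (SE 0.14). BBM, an AP2 factor that can induce embryos on seedlings, had 336, 384 and 342 in the FUS3 arrays, against 47.2, 71.7 and 43.5 in the WT arrays, and rose by 2.42 (SE 0.42). Neither gene had overlapping groups. SPT, a bHLH factor that acts in seed dormancy and in carpels, rose by 1.33 (SE 0.12). BZIP53 and the MADS factor AGL18 were not called, at -0.05 and 0.08. BBM was at -0.10 (SE 0.42) without sucrose and its interaction was 2.51 (SE 0.59).

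The glyoxylate cycle converts the acetyl-CoA from oil breakdown to sugar precursors in germinating seedlings. ICL, isocitrate lyase of that cycle, had 29832, 35359.7 and 31206 in the FUS3 arrays, against 169.7, 118 and 223 in the WT arrays, a rise of 7.47 (SE 0.23), adjusted p = 8.94e-12. It rose by a like amount without sucrose, 6.99 (SE 0.23), and the interaction of 0.48 (SE 0.33) was not called, adjusted p = 0.342. The lipase SDP1, which starts oil breakdown, and AIM1, an enzyme of beta-oxidation, were not called, at 0.16 (SE 0.09) and 0.03 (SE 0.08).

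Some genes differed widely between FUS3 and WT with sucrose and little without it. By the rule of a called interaction and a difference under 0.3 without sucrose, the largest increases were in AT3G58450, AT3G22490, LCR67, M17 and AT5G50360, all between 5.29 and 7.08. AT3G58450, a universal stress protein gene, had 2704, 3684 and 2969 in the FUS3 arrays, against 9.20, 4.36 and 7.53 in the WT arrays. Its difference without sucrose was 0.12 (SE 0.24). The LEA gene M17 averaged 975 ± 65.7 in FUS3 and 5.36 ± 3.53 in WT, and the LEA gene AT3G22490 averaged 1302 ± 181 in FUS3 and 5.10 ± 1.11 in WT. These genes were near the lowest signals in all WT arrays. LCR67, which encodes a defensin-type peptide, had 1493, 982 and 862 in the FUS3 arrays, against 4.80, 11.8 and 5.61 in the WT arrays. Without sucrose AT3G58450 averaged 10.2 ± 6.81 in FUS3 and 8.02 ± 5.22 in WT, M17 averaged 7.86 ± 6.33 in FUS3 and 6.60 ± 4.15 in WT, and LCR67 averaged 7.33 ± 4.14 in FUS3 and 3.82 ± 1.40 in WT. Of all 22746 probe sets, 23.1% had a called interaction, 9.78% higher and 13.3% lower with sucrose.

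**Figure D3:**
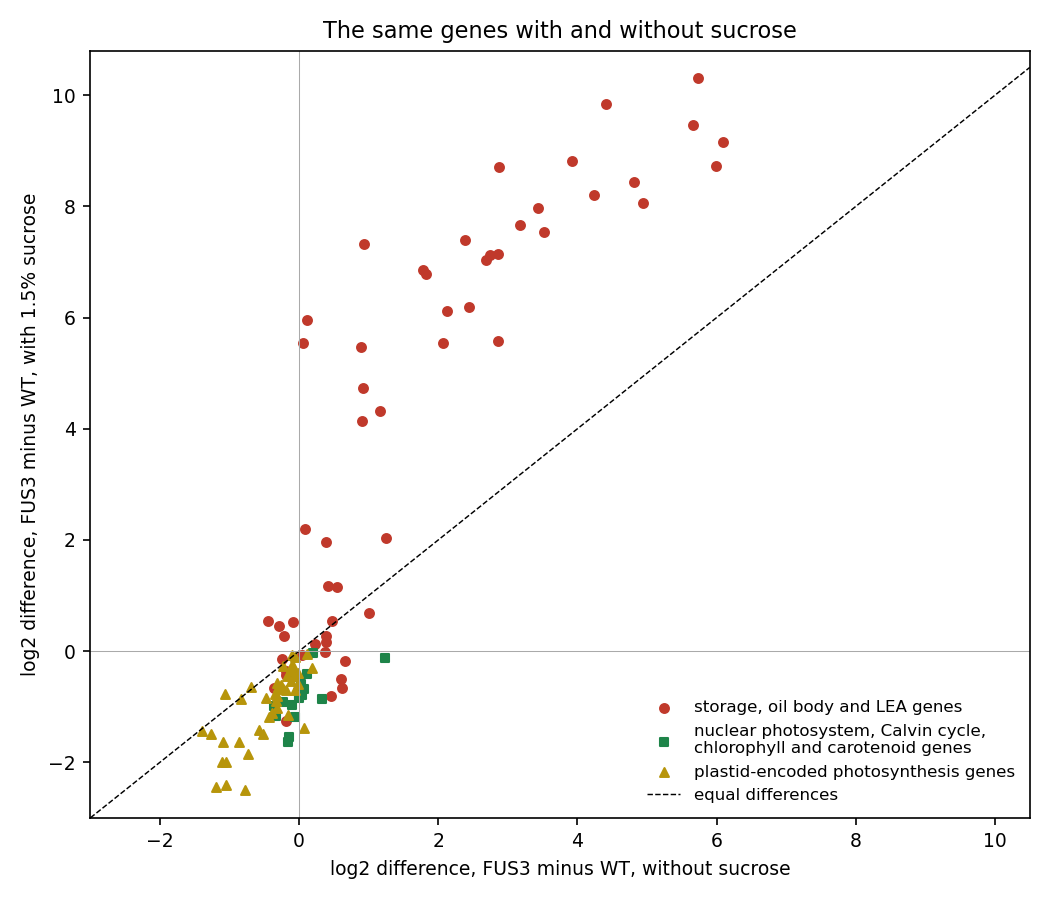
FUS3 minus WT log2 difference without sucrose on the x axis and with sucrose on the y axis, for storage, oil body and LEA genes, nuclear photosynthesis and pigment genes, and plastid photosynthesis genes, 1 point per gene. The seed genes that rose by more than 2 lie above the dashed line of equal differences, and most photosynthesis genes lie below it, with sucrose medians of -0.88 (nuclear photosystem list) and -0.77 (plastid list).

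Genes that were already well expressed in WT also rose. Among those with 1 gene name and a mean WT signal of at least 1000, the 10 largest increases were between 1.7 and 4.54. PDF2.1, a defensin (chromosome 2, 538250 to 539123), had 23812, 23542 and 23467 in the FUS3 arrays, against 1249.8, 1095 and 735 in the WT arrays, and led this group at 4.54 (SE 0.16). AT2G16005 averaged 13508 ± 569 in FUS3 and 1653 ± 445 in WT, and AT5G14450, of the GDSL lipase family, averaged 6341 ± 355 in FUS3 and 1134 ± 94.9 in WT. AT5G64120, a class III peroxidase, averaged 5787 ± 780.2 in FUS3 and 1736 ± 752 in WT, and MSRB6, a methionine sulfoxide reductase that repairs oxidised proteins, averaged 3828 ± 141 in FUS3 and 1172 ± 111 in WT. AT5G60460, AT2G25980, AT5G55620 and AT3G57020 rose by 2.32, 2.08, 2.02 and 1.72. Of these 10 genes, 6 were called higher without sucrose and 9 had a called interaction, which their choice by the difference with sucrose favours.

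Nuclear genes of the photosynthetic apparatus were lower in FUS3 seedlings. Of 8 measured photosystem, antenna and ATP synthase genes, 7 fell (87.5%, against 19.6% of all probe sets), none rose, and the median was -0.88. LHCB4.2, which encodes a minor antenna protein that links light harvesting to photosystem II (chromosome 3, 2717557 to 2718923), had 10708, 8791 and 9734 in the FUS3 arrays, against 30077, 29885 and 31048 in the WT arrays. The highest FUS3 array was far below the lowest WT array, and the difference was -1.64 (SE 0.08), adjusted p = 1.26e-09. PSAN, a photosystem I subunit that docks plastocyanin, had 8958, 7365 and 8325 in the FUS3 arrays, against 23717, 23458 and 24215 in the WT arrays, and fell by 1.54 (SE 0.09). The differences were -1.18 for LHCB4.1, -0.92 for PSBW, -0.85 for PSBY, -0.80 for ATPC1 and -0.68 for PSAE-1, all called lower. The exception was LHCB4.3, the third gene of that antenna protein, at -0.12 (SE 0.15), which was not called. Without sucrose none of the 7 was called, with differences between -0.24 and 0.06, and LHCB4.3 was higher by 1.23. All 8 interactions were called lower with sucrose.

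The Calvin cycle and pigment synthesis moved the same way. PRK and SBPASE, enzymes that regenerate the acceptor of carbon dioxide, were at -0.71 (SE 0.07) and -0.87 (SE 0.08), and RCA was at -0.42 (SE 0.08), so all 3 measured genes fell. SBPASE had 9565, 8468 and 10061 in the FUS3 arrays, against 16615, 17276 and 17306 in the WT arrays. It was higher in FUS3 without sucrose, by 0.33. Of 9 measured genes of chlorophyll and carotenoid synthesis, 8 fell (88.9%, against 19.6% of all probe sets), with a median of -0.72. PORB, which carries out the light-dependent step of chlorophyll synthesis, had 5304, 4756 and 5906 in the FUS3 arrays, against 13695, 9684 and 12746 in the WT arrays. CHLM, the methyltransferase of the magnesium branch, averaged 7072 ± 855 in FUS3 and 13810.0 ± 1654 in WT, and HEME1, of the common porphyrin steps, averaged 1614 ± 142 in FUS3 and 3206 ± 258 in WT. LYC, a carotenoid cyclase, fell by 0.79 (SE 0.06). HEMA2, one of the genes of the first committed step, was not called at -0.03 (SE 0.17).

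**Figure D4:**
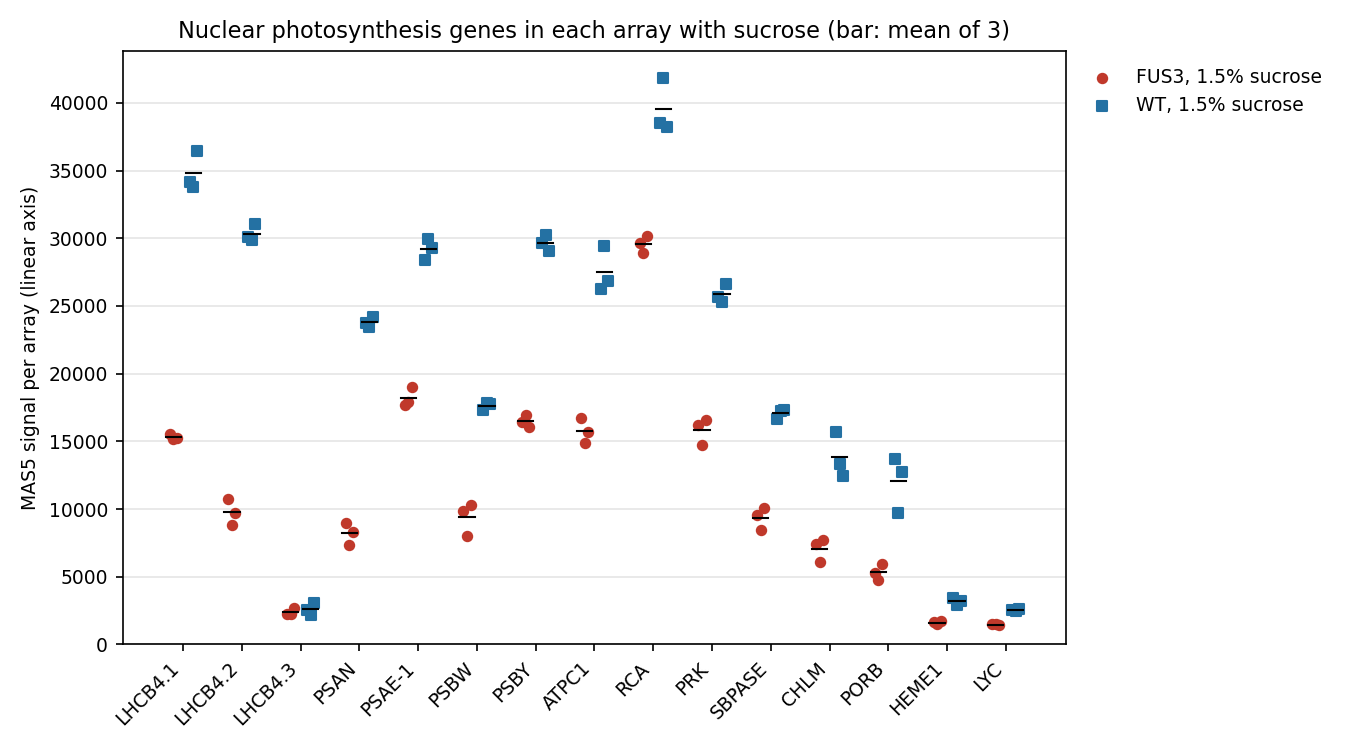
MAS5 signals of 15 nuclear genes of photosynthesis and pigment synthesis on a linear axis, with the 3 FUS3 arrays left of the 3 WT arrays for each gene, 1 point per array and a black bar at the mean. For 14 of the 15 genes every FUS3 point lies below every WT point, and for LHCB4.3 the groups overlap.

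Many photosynthesis transcripts of the plastid genome fell as well, unevenly between and within complexes. Of 43 measured plastid photosynthesis genes, 27 fell (62.8%, against 19.6% of all probe sets), none rose, and the median was -0.77. Of the 27, 22 were called in all 6 fits that left out 1 array. The probe sets of ATP synthase fell most, 5 of 6 with a median of -1.56, and rbcL, for the large subunit of Rubisco, fell by 1.38 (SE 0.23). Photosystem II had 13 of 15 called lower with a median of -0.84, and the NDH complex of cyclic electron flow had 6 of 10 with a median of -0.67. Photosystem I had 1 of 5 at a median of -0.58 and cytochrome b6f 1 of 6 at -0.83. Among ATP synthase genes, atpI, atpH, atpF and atpA, which are transcribed together, fell, with differences of -1.63, -2.49, -1.86 and -1.49. From the other plastid transcription unit of that enzyme, atpB fell by 0.30 (SE 0.11), a call lost without FUS3 replicate 2 or 3 or WT replicate 1 or 3, and atpE was at -0.05 (SE 0.10).

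The NDH gene ndhJ had 399.7, 391 and 336 in the FUS3 arrays, against 2377, 1926 and 1883 in the WT arrays, and fell by 2.4 (SE 0.20). Its neighbour ndhK averaged 290.0 ± 39.2 in FUS3 and 1195 ± 44.5 in WT, while ndhC, of the same transcription unit, was not called at -0.10 (SE 0.16). The gene petB, of cytochrome b6f, had 7597, 7526 and 6819 in the FUS3 arrays, against 17324, 15826 and 14274 in the WT arrays, and psbF, of photosystem II, averaged 9110.2 ± 579 in FUS3 and 13817 ± 912 in WT. For petB and ndhJ the groups did not overlap. Of 24 measured plastid genes of gene expression and other functions, 3 fell, none rose, and the median was -0.27. That is 12.5% called lower, below the 19.6% of all probe sets. The 3 that fell were accD, rpl14 and rpl16, the last 2 encoding ribosomal proteins. Only rpl16 was called in all 6 fits without 1 array, at -1.23 (SE 0.32). The count was 1 without FUS3 replicate 3 or WT replicate 1, and 5 without WT replicate 2. With the replicate number as a block, 32 plastid photosynthesis genes and 5 of the expression group were called lower. Without sucrose 8 of the 43 photosynthesis genes were called lower, with a median of -0.32. The 25S ribosomal RNA control was higher in FUS3 in the same arrays, and its part in the plastid values was not tested.

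Among probe sets with 1 gene name, the 15 largest decreases were between -4.61 and -3.03, while the lowest difference over all probe sets was -5.62. The rule that chose these 15 genes required groups that do not overlap. All 15 had a called interaction, lower with sucrose. They were chosen for their difference with sucrose, which is part of the interaction, so such a call was favoured by the choice. AT5G58390, a class III peroxidase, had 48.4, 22.5 and 41.9 in the FUS3 arrays, against 985, 1317 and 1426 in the WT arrays, a fall of 4.57 (SE 0.21). AT4G19430 had 34.2, 15.9 and 36.4 in the FUS3 arrays, against 555, 478 and 1347 in the WT arrays. In both, every WT array was far above every FUS3 array. AT3G60420 averaged 25.1 ± 21.4 in FUS3 and 675 ± 95.8 in WT, but a second probe set for this locus had signals under 16 in all 6 arrays and was not called (log2 difference 0.24), so the probe sets disagree. CYP71B22, a cytochrome P450, averaged 52.5 ± 13.2 in FUS3 and 571 ± 173 in WT, AT4G21650, a subtilase, averaged 28.2 ± 12.8 in FUS3 and 418 ± 127 in WT, and the peroxidase PRX52 averaged 38.7 ± 7.95 in FUS3 and 452 ± 125 in WT.

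Some of the lowered transcripts were abundant in WT. AT2G41090, a calmodulin-like protein, had 1163, 1196 and 1324 in the FUS3 arrays, against 9065, 13714 and 18923 in the WT arrays, and fell by 3.42 (SE 0.30). AT2G25510 had 3593, 2939 and 6038 in the FUS3 arrays, against 23386, 26405 and 32916 in the WT arrays. The groups did not overlap, as the rule that chose this gene required. AT2G25510 fell by 2.77 (SE 0.28), and was higher in FUS3 without sucrose, by 1.12. Among lectin-type genes, AT3G16530 averaged 1078 ± 59.5 in FUS3 and 8724 ± 1994 in WT, and AT5G03350 averaged 406 ± 53.7 in FUS3 and 3695 ± 1917 in WT. The neighbouring genes AT1G67860 and AT1G67865 were at -3.39 (SE 0.10) and -3.85 (SE 0.26), both called lower, and the S-locus lectin kinase gene AT4G27300 fell by 3.18 (SE 0.18). Of the 5 largest decreases that were under 0.3 without sucrose, AT3G04210, a TIR-NBS disease resistance type gene, averaged 116 ± 34.1 in FUS3 and 1046 ± 292 in WT, and AT2G47560, a RING finger gene, averaged 13.5 ± 2.70 in FUS3 and 201 ± 39.6 in WT.

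Few genes of epidermal cell fate had a named probe set, and they were split in direction. Of 4 measured stomatal genes 2 fell and none rose, and of 3 trichome genes 1 rose and 1 fell. FMA (FAMA), a bHLH factor needed for guard cell formation, had 156, 132 and 80.9 in the FUS3 arrays, against 461, 424 and 587 in the WT arrays, and fell by 1.89 (SE 0.21). Every FUS3 array was below every WT array. SPCH and MUTE, which act earlier in the stomatal lineage, were not called, at 0.15 (SE 0.22) and -0.21 (SE 0.24). STOMAGEN, a peptide that promotes stomata, fell by 0.29 (SE 0.10), a call lost without FUS3 replicate 1 or 2 or WT replicate 1 or 3. TRY, a MYB factor of trichome spacing, had 14.2, 36.1 and 19.2 in the FUS3 arrays, against 132, 95.0 and 111 in the WT arrays, and fell by 1.74 (SE 0.24). SIM, a cell cycle inhibitor of trichomes, rose by 0.86 (SE 0.09). Of root hair expansins, EXPA7 had 408, 547 and 399 in the FUS3 arrays, against 209, 262 and 239 in the WT arrays, and EXPA18 averaged 549 ± 40.9 in FUS3 and 363 ± 5.36 in WT. Both rose, and both were higher without sucrose as well.

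Of 29 measured genes in the list of expansins, xyloglucan enzymes and arabinogalactan proteins, 7 rose and 9 fell. That is 24.1% higher and 31.0% lower, not far from the 18.9% and 19.6% of all probe sets. The measured members were expansins, expansin-like genes and xyloglucan enzymes. EXPA8 and the expansin-like EXLB1 fell most, with XTH32, a xyloglucan-modifying enzyme. EXLB1 had 578, 552 and 382 in the FUS3 arrays, against 2080.0, 2421 and 2551 in the WT arrays, and fell by 2.2 (SE 0.14). EXPA8 averaged 726 ± 95.5 in FUS3 and 2266 ± 179 in WT, and XTH32 averaged 638 ± 7.42 in FUS3 and 1929.9 ± 380.4 in WT. EXPA20 had 1619.8, 1474 and 1533 in the FUS3 arrays, against 371, 339 and 377 in the WT arrays, and rose by 2.04 (SE 0.14). Called interactions were higher with sucrose for 2 genes of this list and lower for 9, among them XTH26, which was at -0.02 with sucrose and 1.90 without.

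Auxin response and gibberellin genes were described by the members with a named probe set. Of 11 measured auxin genes, 5 fell (45.5%, against 19.6% of all probe sets) and 1 rose (9.09%, against 18.9%). IAA29, a repressor of auxin signalling that auxin itself induces, had 357, 424 and 459 in the FUS3 arrays, against 1820.1, 2346 and 2179.5 in the WT arrays, and fell by 2.31 (SE 0.12). GH3.3 and GH3.9, of the family that joins auxin to amino acids, were at -1.52 (SE 0.16) and -1.48 (SE 0.17), both called lower. IAA34 averaged 245 ± 52.4 in FUS3 and 38.4 ± 24.5 in WT, an increase. IAA31, at 0.74, was not called, but was called higher with the replicate number as a block (adjusted p = 0.0227). IAA18 and IAA30 were called lower at -0.66 and -0.72, with the IAA30 call lost without FUS3 replicate 1 or 2 or WT replicate 1. Of 5 gibberellin genes, 3 fell (60%, against 19.6% of all probe sets), including EXPA8. The receptor gene GID1B fell by 0.91 (SE 0.16). GID1A fell by 0.30 (SE 0.11), a call lost without FUS3 replicate 2 or 3 or WT replicate 1, 2 or 3.

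The lists of class III peroxidases and of glucosinolate synthesis each held genes of both directions. Of the 7 measured genes in the peroxidase list, which does not hold AT5G58390, AT5G64120 and AT5G66390 rose, while PRX52, AT2G41480 and Prx37 fell. That is 28.6% higher and 42.9% lower, against 18.9% and 19.6% of all probe sets. Prx37 averaged 415 ± 7.65 in FUS3 and 819 ± 25.9 in WT, and AT2G41480 fell by 1.54 (SE 0.26). In glucosinolate synthesis, AOP3, which modifies the side chain of aliphatic glucosinolates, had 3807, 4133 and 3756 in the FUS3 arrays, against 5.02, 47.0 and 16.3 in the WT arrays, and rose by 6.81 (SE 0.31). BCAT4, the first enzyme of methionine chain elongation, had 4193, 2987 and 3372 in the FUS3 arrays, against 9177, 9842 and 8539 in the WT arrays, and fell by 1.39 (SE 0.10). GSTU20 and UGT74B1, which act in core structure synthesis, were called lower at -0.94 (SE 0.09) and -0.73 (SE 0.11), and the transporters GTR1 and GTR2 were not called, at -0.10 and 0.07. Of 5 measured genes in the list of ethylene, jasmonate and defence markers, 2 rose and 1 fell. The increases were those of LCR67, described above, and THI2.2, a thionin, which was higher by 0.39 (SE 0.13), a call lost without FUS3 replicate 2 or 3 or WT replicate 3, and after subtracting array medians. The defensin gene PDF1.2 had 52.7, 43.0 and 72.7 in the FUS3 arrays, against 257, 152 and 353 in the WT arrays, a fall of 1.85 (SE 0.39). The thionin gene THI2.1 and the defensin gene PDF1.2b were not called, at 0.44 and 0.38.

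Sugar transporters were divided by member. Of 16 measured, 5 rose and 5 fell, 31.25% each way, against 18.9% and 19.6% of all probe sets. SWEET7, SWEET3 and SWEET6, of the SWEET family of sugar carriers, rose by 2.3 (SE 0.35), 2.18 (SE 0.33) and 1.64 (SE 0.29). SWEET11, which exports sucrose from leaf cells toward the phloem, had 4929, 5495 and 5300.0 in the FUS3 arrays, against 10258, 9600.3 and 8334 in the WT arrays, and fell by 0.84 (SE 0.08). SWEET17, a fructose carrier of the vacuole, averaged 938 ± 86.2 in FUS3 and 2387 ± 33.6 in WT, and SWEET10 averaged 38.3 ± 6.04 in FUS3 and 256 ± 86.7 in WT. TMT2, which loads sugar to the vacuole, averaged 1592 ± 59.7 in FUS3 and 995 ± 122 in WT. In starch metabolism, APL3 and APL4, large subunits of the enzyme that makes ADP-glucose, rose. APL3 averaged 777 ± 89.5 in FUS3 and 428 ± 82.3 in WT, and APL4 averaged 299 ± 30.4 in FUS3 and 154 ± 21.1 in WT. Of 8 measured starch genes 3 rose (37.5%) and 2 fell (25%), against 18.9% and 19.6% of all probe sets. The decreases were those of a pair of dikinase genes. AT4G24450 was at -0.87 (SE 0.16). AT5G26570 was at -0.22 (SE 0.08), a call lost without FUS3 replicate 2 or 3 or WT replicate 1, 2 or 3.

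Of 7 measured genes of flavonoid and anthocyanin synthesis, 5 rose (71.4%, against 18.9% of all probe sets) and none fell. The call of UGT78D3 was lost without FUS3 replicate 1 or 3 or WT replicate 1 or 2. CHIL, which enhances flavonoid production, averaged 3726 ± 308 in FUS3 and 1698 ± 73.1 in WT, and the anthocyanin glycosyltransferase UF3GT averaged 813 ± 140.1 in FUS3 and 331 ± 44.6 in WT. Both were also higher without sucrose. Of 5 measured sugar starvation genes 2 rose and 1 fell. HIS1-3, a stress-induced linker histone, had 1634, 2272 and 2089 in the FUS3 arrays, against 681, 519 and 749.8 in the WT arrays, and rose by 1.60 (SE 0.16). ETFQO, which feeds electrons from amino acid breakdown to respiration, fell by 0.40 (SE 0.09) and was -0.86 without sucrose.

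Few markers of other tissues were called, and most of them had low signals, from which a fall could hardly be seen. Of 3 measured endosperm and seed coat markers none was called, and all 3 had a mean WT signal under 100. Their summed signal was 97.8 to 147 in the FUS3 arrays and 74.5 to 134 in the WT arrays. Of 8 pollen and anther markers, 7 with a mean WT signal under 100, TUA1, an alpha-tubulin, fell by 0.59 (SE 0.09) and none rose. The summed signal of the 8 was lower in FUS3 without overlap, 742 to 801 in the FUS3 arrays and 995 to 1169.7 in the WT arrays. All 3 measured reference genes, AT2G28390, GAPC2 and PEX4, were within 0.06 of 0 and none was called. Of 4 measured cell division genes AUR1 alone was called, and of 3 cuticle genes none. Of the clock and light signalling genes, HYH rose by 0.69 (SE 0.09), and GI, at 0.30 (SE 0.11), was not called, but was called higher with the replicate number as a block (adjusted p = 0.0285).

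**Figure D5:**
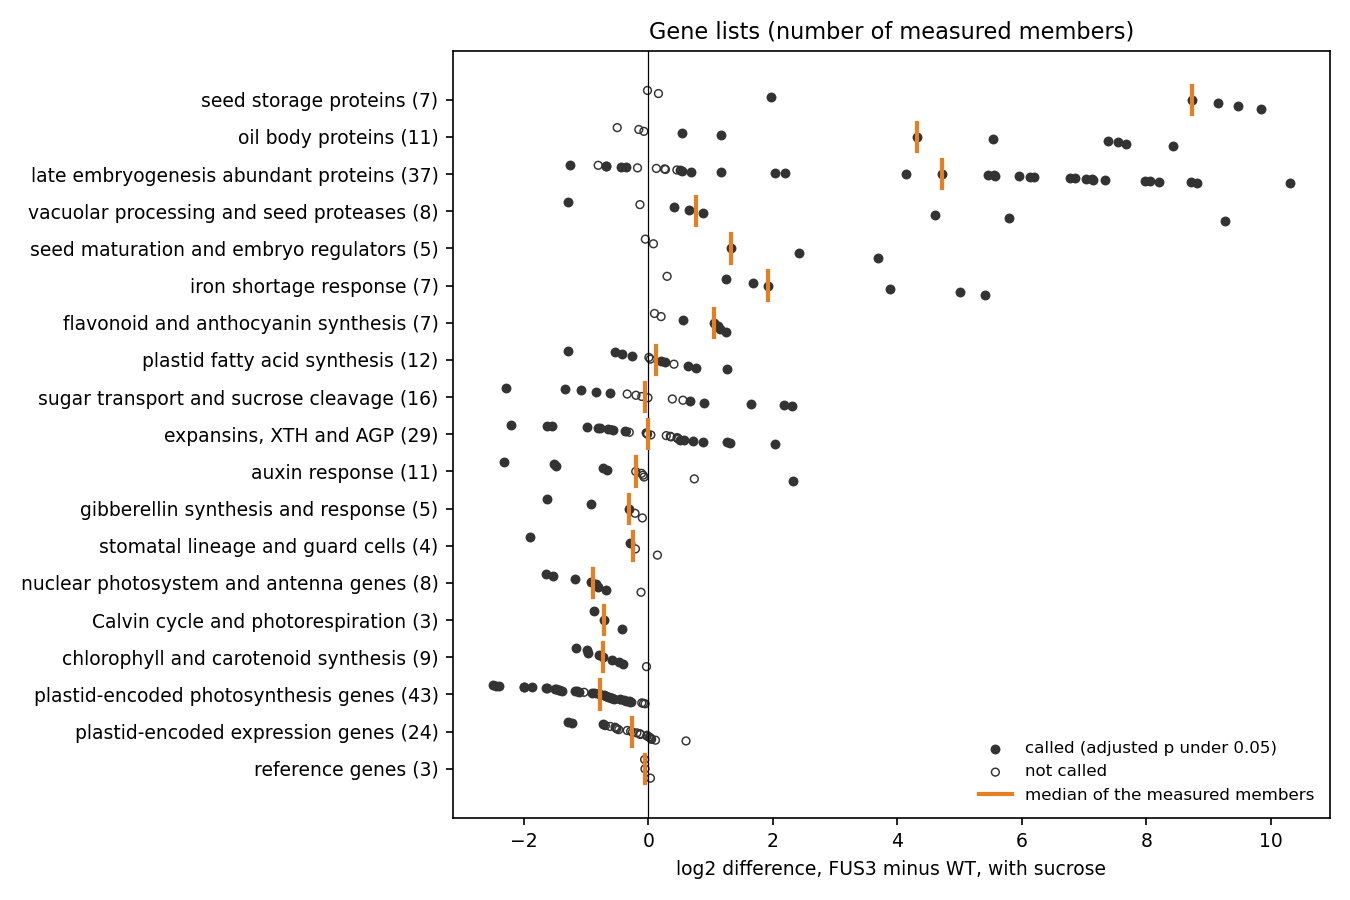
FUS3 minus WT log2 differences with sucrose of every measured member of 19 gene lists, 1 point per gene, with the list median marked. The storage, oil body and LEA lists have medians of 8.73, 4.31 and 4.73, and the medians of the photosynthesis lists lie below 0. Most measured members of the storage, oil body and LEA lists were put on them after the files were read.

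The direction of the FUS3 difference depended on sucrose for some genes. In 421 probe sets the difference was called with and without sucrose in opposite directions, 171 higher and 250 lower with sucrose. AUR1, an Aurora kinase of dividing cells, was lower with sucrose by 0.42 (SE 0.12), and higher without it by 0.42. IVD, of leucine breakdown, was higher with sucrose by 0.27 (SE 0.08), a call lost without FUS3 replicate 2 or WT replicate 1 or 2, and was -0.97 without it. DPE1, of starch breakdown, averaged 1006 ± 25.5 in FUS3 and 783 ± 83.5 in WT with sucrose, and rose by 0.36 (SE 0.09).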

How the data were processed

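Affymetrix ATH1 signals were deposited by the authors as linear intensity values, computed per the submitters' processing notes with MAS5 in Affymetrix Expression Console. Each array's trimmed mean is 1000 as deposited, with 2% trimmed at each end. The sources used here give no software versions. Of 22810 probe sets, 64 controls were left out and 22746 tested. The probe table named 1 gene for 13513 of these and several for 503, while 8730 had no name, and 13508 were matched to TAIR10.1 in the RefSeq gene table, which gives the coordinates. Signals plus 16 were log2-transformed and fitted with limma 3.58.1 in R 4.3.3 as 4 group means over all 12 arrays, with empirical Bayes trend and Benjamini-Hochberg adjustment over all 22746 probe sets at 0.05. Python 3.11.15 and matplotlib 3.10.9 made the summaries and figures.

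The main fit left the replicate number out. Between FUS3 and WT arrays with sucrose, deviations from group means correlated at 0.19, 0.26 and 0.13 for same-numbered arrays. For different numbers the correlations were -0.22 to 0.07. Whether the numbers mark paired samples was not tested. A fit with the number as a block was an alternative, as were other added constants (1 and 64), quantile or median scaling, leaving out the lowest 40% of probe sets, only the 6 arrays with sucrose, other variance models, a 2-fold minimum, and 1 array left out at a time. In simulated data for the comparison with sucrose over 22746 probe sets, 100 were changed by a log2 value of 1 and 100 by 2. The fit recovered 72% of the first and 99% of the second, with 6 false calls. Far fewer were changed than the 8761 called in the data, so these values need not hold there.

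The members and lists were chosen with earlier results of these data known. Loci were added to the lists, and wrong matches removed, after the files were read. In the seed lists most measured members were such additions: the earlier lists held 1 of the 7 storage protein genes, 1 of the 11 oil body genes, 9 of the 37 LEA genes, 3 of the 12 fatty acid synthesis genes, 2 of the 3 triacylglycerol genes, and none of the iron and protease genes. Named genes, all from probe sets with 1 gene name, are the 15 largest called changes each way whose groups do not overlap, the 10 largest each way from WT signals of at least 1000, up to 4 called members per list by adjusted p, and the 5 largest each way that were under 0.3 without sucrose with a called interaction. Other list members are named to account for each list, and were chosen after their values were seen. A locus with several probe sets of its own is given by the brightest one on average. Roles of genes named by locus tag are general knowledge. No promoter or protein sequences were used here.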

Additional observations from a re-analysis of the deposited data

Results flagged for a closer look

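The difference between FUS3 and WT depended on sucrose, by a test of the interaction, in 5253 probe sets. Of the genes named, 8 were called in opposite directions with and without sucrose. The interaction, positive where the difference was higher with sucrose, was 0.65 for DPE1, 1.24 for IVD, -0.85 for AUR1, -1.20 for SBPASE, -1.34 for GSTU20, -1.90 for Prx37, -3.89 for AT2G25510 and -5.49 for AT1G76960. AT1G76960 had 2.48, 4.09 and 6.10 in the FUS3 arrays, against 389.8, 398 and 697 in the WT arrays with sucrose, and averaged 89.0 ± 28.1 in FUS3 and 40.7 ± 15.1 in WT without it.

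Outside the comparison, the 25S ribosomal RNA control was higher in FUS3 than in WT by 1.54 on the log2 scale, in all 3 FUS3 arrays against all 3 WT arrays (exact permutation p = 0.1). A further 4090 of the 9233 probe sets without a single gene name were called, 1922 higher and 2168 lower, and they are not described here.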

How the results depend on the processing

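The count called with sucrose was 8761, and 7701 to 8081 when 1 array was left out, with 3683 to 4015 higher and 3971 to 4128 lower. For the interaction, leaving out 1 of the 12 arrays gave 4474 to 5009 calls, 1893 to 2159 higher and 2581 to 2867 lower. A 2-fold minimum, which by construction keeps only large differences, left 2342 calls with sucrose, 1124 higher and 1218 lower, and 1959 for the interaction, 826 higher and 1133 lower. With the replicate number as a block, 8959 probe sets were called, 4396 higher and 4563 lower, and 5550 for the interaction. Of 2041 values of named genes under the alternatives, 2003 stayed on the same side of the threshold, 35 lost the call and 3 gained it. None changed direction where the main fit or the alternative was called. Genes called in neither were not counted as changing direction, such as PYK10, at 0.01 and at -0.07 without WT replicate 3. The named genes were mostly chosen by the size or adjusted p of the same differences, which favours calls that hold. Over all probe sets, 6485 of the 8761 calls held in all 6 fits that left out 1 array with sucrose. Of 1118 list counts, 1031 were within 1.5 times the count given. The median of all probe sets was -0.03 after quantile normalization and -0.04 after subtracting array medians. The filter on low values left out low-signal seed genes, so fewer were tested. The search of promoters for motifs was not run, since no promoter sequences were used here. Signals near background, with no detection calls, and 3 arrays per group limit precision.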

Other observations

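Genes induced when iron is short were higher in FUS3 seedlings with sucrose. Of 7 measured, 6 rose and none fell, with a median of 1.93, where 18.9% of all probe sets were called higher. All 7 were put on this list after the files were read, so the count describes these genes only. BHLH101, a bHLH factor of the iron response, had 1624, 1834 and 1720.4 in the FUS3 arrays, against 25.1, 15.9 and 36.4 in the WT arrays, and rose by 5.41 (SE 0.17). AT1G47400, of the IRONMAN peptide type, had 10254, 10376 and 10837 in the FUS3 arrays, against 319, 253 and 376 in the WT arrays. PYE, another bHLH factor, averaged 1490.0 ± 121 in FUS3 and 450.1 ± 3.56 in WT, and AT3G58060, a metal transporter, averaged 993 ± 81.6 in FUS3 and 52.7 ± 8.34 in WT. AT1G18910 was not called at 0.30 (SE 0.13). All 6 were also called higher without sucrose.

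Several gene families, chosen after their values were seen, held single members with large differences. Of 40 measured MADS-box genes, AGL67 averaged 1693 ± 49.9 in FUS3 and 1.68 ± 0.0874 in WT, while AGL24, a factor of flowering, averaged 45.3 ± 22.3 in FUS3 and 271 ± 45.3 in WT. Among 15 tetraspanins, TET15 averaged 297 ± 9.24 in FUS3 and 4.32 ± 2.15 in WT and TET4 averaged 262 ± 18.8 in FUS3 and 62.3 ± 26.7 in WT. Among 20 beta-glucosidases, BGLU19 averaged 10014 ± 896 in FUS3 and 97.6 ± 10.3 in WT, and BGLU33 averaged 415 ± 56.4 in FUS3 and 1962 ± 104 in WT. Of 15 endoglucanases of family 9, 1 rose (6.67%, against 18.9% of all probe sets) and 6 fell (40%, against 19.6%), with GH9B13 at -1.82 (SE 0.19). Of 11 RALF peptide genes, 3 fell (27.3%, not far from the 19.6% of all probe sets) and none rose. UGT76E12 led 47 UDP-glycosyltransferases at 3.22 (SE 0.38).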
